A study of Mus musculus with 6 samples.

Results

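Clustered histone genes were examined in monocytes sorted from the CNS of mice with EAE, the mouse model of multiple sclerosis induced by immunization with a myelin peptide. The genes were taken as the protein-coding genes whose GENCODE M21 symbol starts with Hist1h, Hist2h, Hist3h or Hist4h, a rule that uses no measured value. It chose 67 of the 54232 gene identifiers in the deposited files. Of these, 6 encode linker histone H1, 18 encode H2A, 18 encode H2B, 12 encode H3 and 13 encode H4. On GRCm38, 54 lie in the Hist1 cluster on chromosome 13, between 21715763 and 23934851, and 10 lie in the Hist2 cluster on chromosome 3, between 96219865 and 96270132. The Hist3 cluster on chromosome 11 has 2 members, and Hist4h4 on chromosome 6 is the only member of Hist4.

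All donors' cells developed in the same kind of recipient. GFP+ mice were irradiated 2 times with 550 Rad, 12 h apart, and reconstituted with equal parts of WT (CD45.1) and Ifnar1-/- (CD45.2) bone marrow. EAE was induced 6 to 7 weeks later, and every mouse was given 30000 IU of IFN-β daily, so that both genotypes were exposed to the same treatment and no untreated group was analysed here. At the peak of disease, donor-derived CD11b+Ly6ChiLy6G- monocytes that lacked GFP were sorted by CD45 allele into 3 WT and 3 Ifnar1-/- libraries. Ifnar1 encodes a chain of the type I IFN receptor, so the comparison asked which transcript levels differ when a monocyte cannot receive IFN-β directly. The CD45 allele and the donor strain go with the genotype and cannot be told apart from it. The experiment used 3 recipients and 3 libraries per genotype, so that WT and Ifnar1-/- libraries may share recipients. Which library came from which recipient was not given in the sources used here, and p-values measure the spread between these libraries. Age was not given.

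Clustered histone genes supply the bulk of new histone protein while DNA is being copied. Their short, mostly intronless transcripts are made chiefly in S phase, and most end in a conserved stem-loop instead of a poly(A) tail. The stem-loop is bound by SLBP, and the cut that forms the transcript's end involves the U7 snRNP. Some clustered genes can also give longer, polyadenylated transcripts in cells that do not divide. By contrast, replication-independent histone genes such as H3f3a, H3f3b and H2afz lie outside the clusters and give ordinary polyadenylated mRNA. Libraries of total RNA, the kind named in the labels and in the study's methods, can hold transcripts without a poly(A) tail.

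The stem-loop is shown first because it sets these transcripts apart from other mRNAs. It was searched for after the stop codon as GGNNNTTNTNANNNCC on the transcript strand, with at least 5 of the 6 stem positions able to pair. A match was found in 46 of the 67 members (68.7%), and in 46 of the 52 (88.5%) with at least 16 annotated bases after the stop codon. Among other protein-coding genes with at least 16 such bases, 100 of 20931 (0.478%) had a match. For 13 members the annotation ends at the stop codon, so nothing was there to search. The core spelled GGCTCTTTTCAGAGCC occurred in 26 members, drawn from H1, H2A, H2B and H3. A core with a different stem, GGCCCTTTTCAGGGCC, occurred in 7 members, all of them H4 genes. The windows of 8 members that differ in core, in annotated transcript end or in their values are printed here. Each is given with its GRCm38 position and with the 16-base core in capitals. In these labels chr13.0, chr3.0 and chr6.0 stand for chromosomes 13, 3 and 6.
Hist1h1c (chr13.0:23739507-23739532, plus strand): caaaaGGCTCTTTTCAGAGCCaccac
Hist1h2ap (chr13.0:21833026-21833049, minus strand): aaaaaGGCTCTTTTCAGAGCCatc
Hist2h2aa1 (chr3.0:96246027-96246052, plus strand): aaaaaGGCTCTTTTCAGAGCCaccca
Hist2h2aa2 (chr3.0:96239779-96239804, minus strand): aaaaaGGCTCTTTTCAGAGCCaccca
Hist2h2ac (chr3.0:96220413-96220438, minus strand): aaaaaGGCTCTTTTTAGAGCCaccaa
Hist1h4a (chr13.0:23760795-23760820, minus strand): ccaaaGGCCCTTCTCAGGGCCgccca
Hist1h4b (chr13.0:23757361-23757386, plus strand): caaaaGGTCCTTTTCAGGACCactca
Hist4h4 (chr6.0:136803993-136804018, minus strand): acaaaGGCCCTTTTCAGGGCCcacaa
The printed windows of Hist2h2aa1 and Hist2h2aa2 are identical. Members of different classes, such as Hist1h1e and Hist1h3b, also share a stem-loop window, so such identity does not show how reads were divided. Hist1h2ap is annotated to end 3 bases after its stem-loop, whereas Hist1h1c runs on for 840 bases and Hist4h4 for 2445.

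Promoters (250 bases before to 50 after the RefSeq start, GRCm38.p6) were found for 62 members. The CCAAT box, searched as CCAAT on both strands, occurred in 53 of 62 (85.5%) against 37.9% of all 27025 promoters. It was in every H1, H2A, H2B and H3 promoter matched and in 3 of 12 H4 promoters. TATAAA, the only word searched for as the TATA box, occurred in 56.5% of member promoters and 14.2% of all. AAACACA, here called the H1 motif because it is known from H1 promoters, occurred in 5 of 6 H1 promoters (83.3%) and in 7.14% of all. ATTTGCAT, the octamer known from H2B promoters, occurred in 7 of 18 H2A and 6 of 16 H2B promoters, against 1.75% of all. The promoters of some neighbouring H2A and H2B genes overlap, as for Hist1h2ah and Hist1h2bk. The same match can then be counted for both genes, so counts of any motif in H2A and H2B are not independent. A pair of TTTC words 2 bases apart, the core of the element bound by interferon-activated factors, occurred in 1 of 62 member promoters (1.61%), that of Hist1h3h, and in 3.49% of all promoters. All 5 motifs were searched on both strands, and matches of different motifs did not overlap in any member promoter. Promoters of 2 linker histone genes whose levels varied to different degrees between libraries are printed here, with matches to the CCAAT box, the TATA box and the H1 motif on either strand in capitals.
Hist1h1b (chr13:21780576-21780875, minus strand): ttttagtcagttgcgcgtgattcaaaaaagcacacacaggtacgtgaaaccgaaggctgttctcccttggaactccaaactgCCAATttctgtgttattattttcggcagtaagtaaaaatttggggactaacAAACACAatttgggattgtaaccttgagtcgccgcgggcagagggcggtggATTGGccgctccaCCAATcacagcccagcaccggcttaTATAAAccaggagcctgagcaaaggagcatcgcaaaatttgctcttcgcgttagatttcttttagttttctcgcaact
Hist1h1c (chr13:23738557-23738856, plus strand): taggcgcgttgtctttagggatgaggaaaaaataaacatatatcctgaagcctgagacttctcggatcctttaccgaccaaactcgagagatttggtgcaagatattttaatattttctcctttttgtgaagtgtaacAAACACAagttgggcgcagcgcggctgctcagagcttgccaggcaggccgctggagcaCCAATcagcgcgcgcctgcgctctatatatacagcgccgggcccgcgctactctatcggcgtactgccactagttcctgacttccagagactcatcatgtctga
Both hold AAACACA and CCAAT, and only that of Hist1h1b holds the exact word TATAAA. That of Hist1h1c holds the similar word tatatata, which the search did not count, so a TATA box is not shown to be absent from it.

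Of the 67 members, 64 had a count in at least 1 library and 62 had enough reads to be tested. Hist1h2aa, Hist1h2ba and Hist2h3c1 were at 0 counts in all 6 libraries, which allows up to 0.427 to 0.638 normalized CPM in each library (3 counts, counting error only). Hist1h2aa and Hist1h2ba encode testis-specific H2A and H2B, while every 75-base window of Hist2h3c1 is shared with another gene. Hist1h1t, the testis-specific linker histone, had 15 counts in all libraries together and Hist3h2ba had 13, and neither was tested. Normalized CPM are CPM computed with library sizes corrected by TMM, a scaling that assumes most genes do not differ. Together the members took 0.143% to 0.301% of all counts, from libraries of 4531782 to 7321380 expected counts.

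Per transcript length, the highest mean level was that of Hist2h2aa1, an H2A gene, with a mean of 408 TPM over the 6 libraries. Hist1h2ap and Hist1h2ai, both H2A genes, followed with 274 and 250 TPM, and the linker histone gene Hist1h1c with 215 TPM. The 12 members with the highest mean TPM also held Hist2h2bb (188 TPM), Hist1h2ak (160 TPM), Hist1h4k (154 TPM), Hist2h3b (147 TPM), Hist2h2ac (145 TPM), Hist1h2ab (122 TPM), Hist1h2af (109 TPM) and Hist1h2bn (108 TPM). TPM of WT replicate 1 were low for most members, and the 7S RNA gene Rn7s2 took 27.8% of its TPM against at most 11.2% in the other 5 libraries. Comparisons between libraries below therefore use normalized CPM.

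Expression of the clustered histone genes did not differ detectably between WT and Ifnar1-/- monocytes. No member of the 62 tested passed an adjusted p of 0.05 with a fold change of 1.5 (edgeR's quasi-likelihood test with Benjamini-Hochberg adjustment over 11254 genes), whereas 240 genes (2.13%) did. DESeq2 also called 0 members (1.98% of genes), and 1 had an unadjusted p below 0.05 there. At an unadjusted p below 0.05 there were 2 members, Hist2h2aa2 and Hist2h2be, against 17.8% of all genes tested. The same 2 were the only members whose 3 WT and 3 Ifnar1-/- values did not overlap, against 23.4% of all genes tested. The estimates were less precise than for most genes, with a median SE of 0.37 on the log2 scale for members and 0.21 for all genes tested. For 32 members the 95% interval of the fold change lay within 2-fold in either direction, and for the other 30 a 2-fold difference was not excluded by it.

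**Figure D1:**
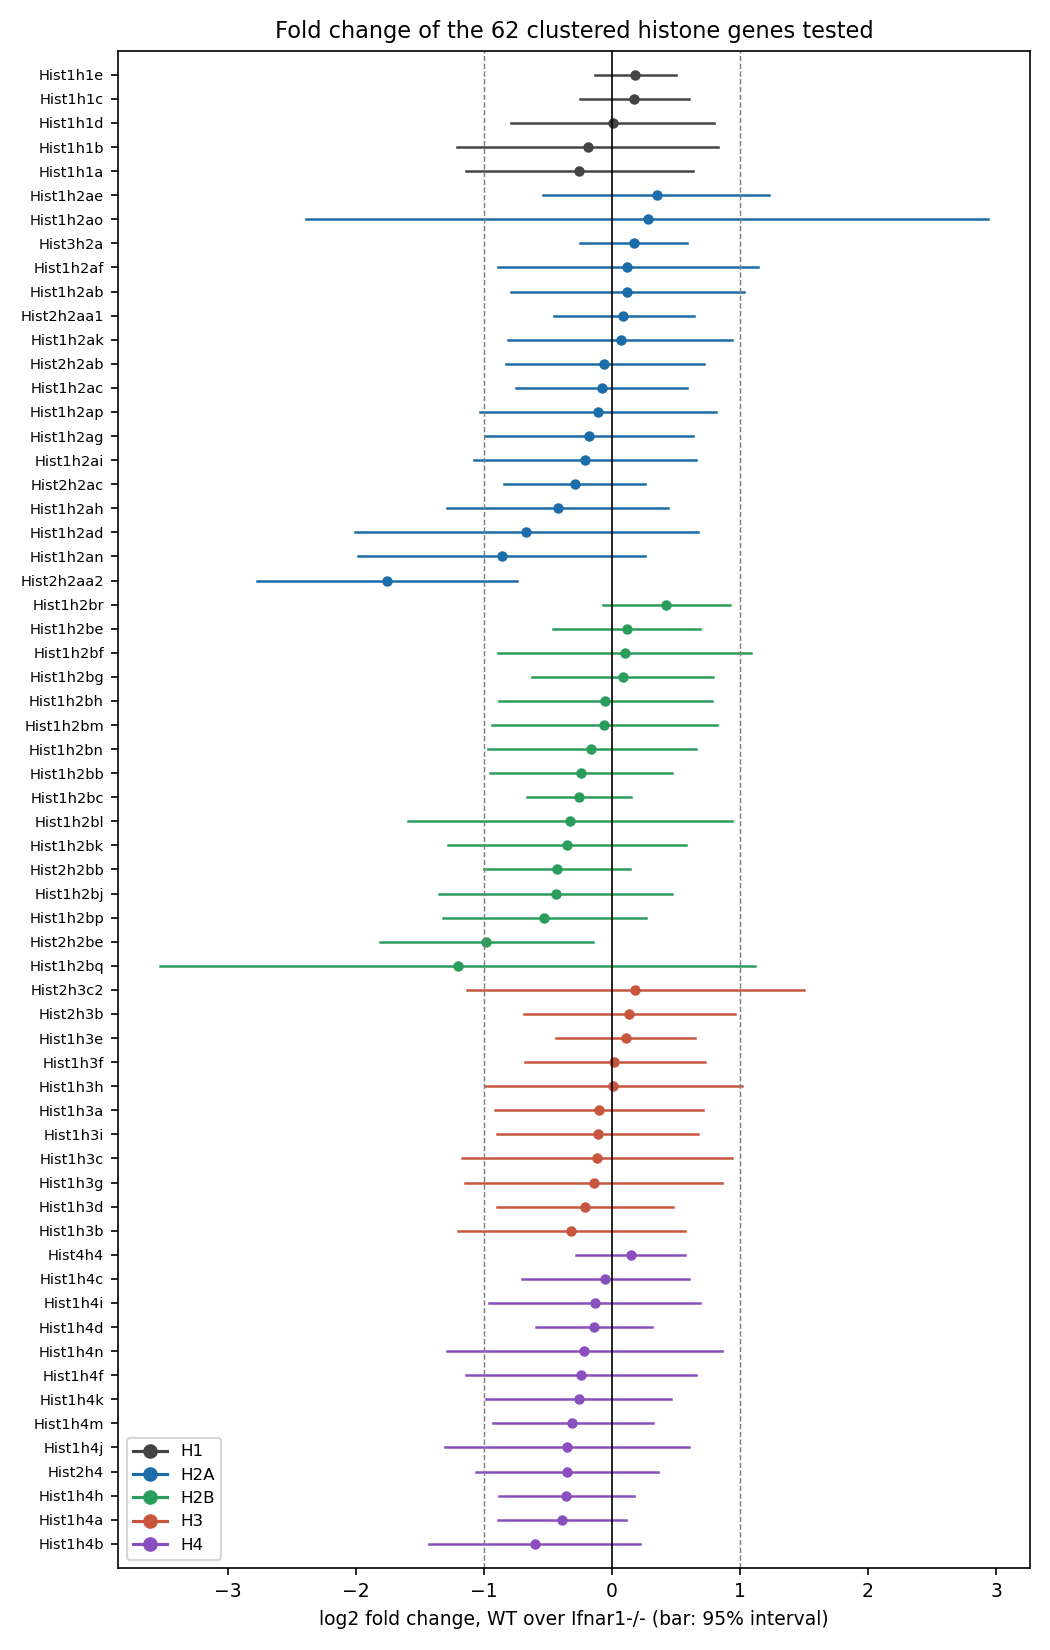
Log2 fold change (WT over Ifnar1-/-, horizontal axis) of the 62 clustered histone genes tested, one per row and coloured by histone class, with 95% intervals from edgeR as bars and dashed lines at a 2-fold difference. Estimates run from -1.76 (Hist2h2aa2) to 0.42 (Hist1h2br), and 60 of the 62 intervals cross 0.

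The median log2 fold change of the members was -0.14, beside -0.01 for all genes tested. Values were below 0, that is lower in WT, for 42 of 62 members, against 51.8% of all genes. The sign of this median depended on single libraries. It was 0.07 without WT replicate 1, when 26 members were below 0, and 0.27 without Ifnar1-/- replicate 3, when 15 were. Without replicate 3 of both groups, an alternative chosen after seeing the data, it was 0.16. From TPM it was -0.03, with 33 members below 0. No direction is therefore given for the family as a whole.

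Linker histones bind DNA where it enters and leaves the nucleosome. Hist1h1c had the most counts of all members, with 292, 373 and 352 normalized CPM in the WT libraries and 336, 223 and 341 in the Ifnar1-/- libraries. Only Ifnar1-/- replicate 2 stood below the rest, and the groups overlapped. The log2 fold change was 0.17 ± 0.19 (SE, n = 3 libraries per group, edgeR, adjusted p = 0.68). Hist1h1e, another linker histone gene, was at 165, 189 and 192 in WT and at 171, 144 and 166 in Ifnar1-/- monocytes, with a log2 fold change of 0.18 ± 0.14 (SE). These were the steadiest H1 genes, and their highest libraries exceeded their lowest 1.67-fold and 1.34-fold. Hist1h1b and Hist1h1a, named here after their values were seen, varied far more. Hist1h1b was at 22.9, 78.0 and 71.5 in WT and at 61.7, 31 and 103 in Ifnar1-/- libraries, so that WT replicate 1 and Ifnar1-/- replicate 2 were low and Ifnar1-/- replicate 3 was high. Hist1h1a was low and high in the same libraries, with 16.1, 47.2 and 35.1 in WT and 35.0, 21.9 and 60.0 in Ifnar1-/-.

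H2A pairs with H2B to form the dimers that flank the H3-H4 core of the nucleosome. Hist1h2ap was at 38.6, 94.8 and 115 normalized CPM in WT and at 74.2, 50.2 and 143 in Ifnar1-/- monocytes. Again WT replicate 1 and Ifnar1-/- replicate 2 were lowest and Ifnar1-/- replicate 3 highest, and the fold change of -0.11 ± 0.41 (log2, SE) was small against this spread. Hist1h2ai (25.0, 54.6 and 73.0 in WT, 45, 37.8 and 92.9 in Ifnar1-/-) and Hist1h2ak (16.5, 43.8 and 46.4 in WT, 25.7, 22.5 and 53.0 in Ifnar1-/-) gave the same picture. Hist1h2ab, Hist1h2af and Hist1h2ae had log2 fold changes of 0.12, 0.12 and 0.35 and SEs of 0.40 to 0.46. Hist1h2an was at 2.99, 8.08 and 9.48 in WT and 8.25, 6.44 and 22.1 in Ifnar1-/- libraries, with Ifnar1-/- replicate 3 well above the rest. Its log2 fold change was -0.86 ± 0.51 (SE, edgeR, adjusted p = 0.406). Hist2h2ac differed less between libraries, at 28.3, 64.4 and 46.4 in WT and 54.5, 52.4 and 62 in Ifnar1-/-. Hist3h2a was among the steadiest members, at 31.6, 48.5 and 44.8 in WT and 33.4, 33.7 and 43.8 in Ifnar1-/-.

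Hist2h2aa2, an H2A gene at chr3:96239749-96240276, came nearest to the threshold. It was at 16.4, 19.6 and 4.74 normalized CPM in WT and at 49.2, 22.7 and 66.2 in Ifnar1-/- libraries. All 3 WT values were below all 3 Ifnar1-/- values, and WT replicate 3 was the lowest. The log2 fold change was -1.76 ± 0.46 (SE, 95% interval -2.77 to -0.74, edgeR, adjusted p = 0.0864), and the exact permutation test gave p = 0.1, the smallest that 3 against 3 libraries allow. Without Ifnar1-/- replicate 2 it passed the threshold, at -2.06 with an adjusted p of 0.049 (edgeR). Without a filter on low counts, 3 members were called, Hist2h2aa2, Hist1h2an and Hist1h2bq, against 4.1% of all genes. Every 75-base window of its transcript is shared with another gene, so its reads could not be placed by sequence alone. Its near-identical copy Hist2h2aa1 was at 128, 203 and 207 in WT and 139, 136 and 229 in Ifnar1-/-, with a log2 fold change of 0.09 ± 0.24 (SE).

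Summed over both copies, the level was 145, 223 and 212 in WT and 188, 159 and 296 in Ifnar1-/-. The groups overlapped, and the log2 fold change of the sum was -0.15 ± 0.24 (SE, 95% interval -0.69 to 0.39, edgeR, adjusted p = 0.797). What differed was the share of the sum that was assigned to Hist2h2aa2, at 11.3%, 8.77% and 2.23% in WT and 26.2%, 14.3% and 22.4% in Ifnar1-/-. RSEM divides reads that match several genes by estimated probability, and Hist2h2aa2 has no window of its own. The overlapping processed transcript Gm20634 shares these windows too, and the sum over all 3 genes was 174, 258 and 248 in WT and 222, 187 and 318 in Ifnar1-/- libraries.

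Another 2 pairs showed the same kind of division. Hist1h2bq was at 0.569, 17.2 and 19.3 in WT and at 28.9, 0.339 and 53.7 in Ifnar1-/- libraries, the widest ratio of highest to lowest library among members tested on the scale of normalized CPM + 0.5 (64.6-fold). The copy Hist1h2br, with 87.6% of its windows shared, had the smallest unadjusted p among members higher in WT (0.0868), with 37.1, 30.2 and 46.0 in WT and 19.7, 32.7 and 32.4 in Ifnar1-/-. Their sum was 37.7, 47.4 and 65.3 in WT and 48.6, 33.0 and 86.1 in Ifnar1-/- monocytes, with a log2 fold change of -0.16 ± 0.31 (SE). Hist1h2ao received 0 counts in WT replicate 3 and in Ifnar1-/- replicates 2 and 3. It shares 93.1% of its windows with Hist1h2ap, which was high in WT replicate 3 (115) and Ifnar1-/- replicate 3 (143). In Ifnar1-/- replicate 2, however, Hist1h2ap was low (50.2). The sum of this pair had a log2 fold change of -0.10 ± 0.40 (SE). With the 3 pairs summed before the fit, an alternative chosen after seeing the data, 0 of 59 features were called and 1 had an unadjusted p below 0.05. Over all members tested, the median share of windows found in another gene on the same strand was 44.2%, and it was above 50% for 27 members. Counting either strand left the share unchanged for most members, but raised it from 49.8% to 100% for Hist2h2bb and from 78.5% to 100% for Hist2h3b. Of the 67 members, 21 overlap another annotated gene on the opposite strand, and whether counting used the strand was not given.

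**Figure D2:**
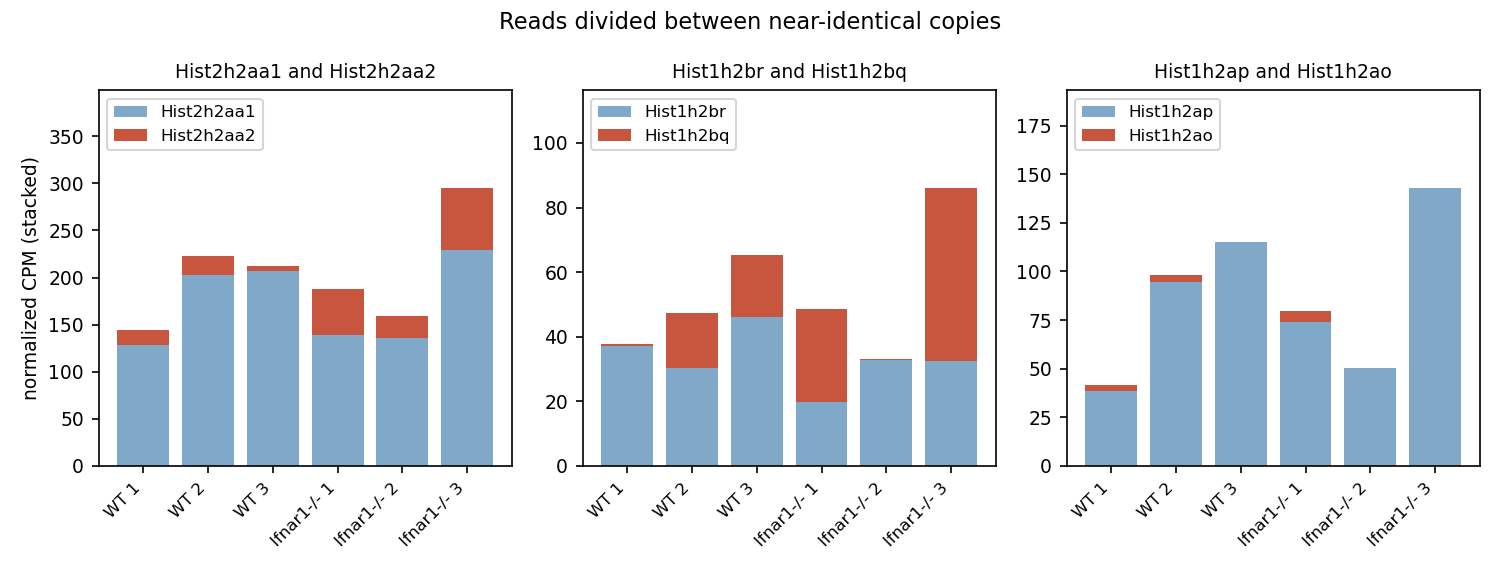
Stacked bars of normalized CPM (vertical axis) in each of the 6 libraries for 3 pairs of near-identical genes. The division between copies differs from library to library, as for Hist1h2bq with 1.51% of its pair's sum in WT replicate 1 and 62.4% in Ifnar1-/- replicate 3.

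Hist2h2be, an H2B gene at chr3:96221119-96223738, shares no window with another gene, so none of its 75-base windows could be placed elsewhere. It was at 1.99, 3.19 and 1.78 normalized CPM in WT and at 5.96, 3.56 and 4.05 in Ifnar1-/-. The groups did not overlap, with Ifnar1-/- replicate 1 highest. The log2 fold change was -0.98 ± 0.37 (SE, 95% interval -1.81 to -0.15), with an unadjusted p of 0.0247 and an adjusted p of 0.208 (edgeR). The gene had 120 counts over all 6 libraries, and no stem-loop match in its 2192 annotated bases after the stop codon. Among other H2B genes, Hist2h2bb, at 23.3, 34.2 and 43.2 in WT and 40.2, 34.4 and 61.1 in Ifnar1-/-, had a log2 fold change of -0.43 ± 0.26 (SE), and Hist1h2bn one of -0.16 ± 0.37.

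H3 and H4 form the tetramer at the centre of the nucleosome. Hist2h3b, the H3 gene with the highest mean TPM, was at 25.2, 60.8 and 61.2 in WT and 33.0, 30.3 and 70.2 in Ifnar1-/-, with a log2 fold change of 0.13 ± 0.37 (SE). Hist2h3c2, named after its values were seen, spread more widely than any other H3 gene, from 7.26 in WT replicate 1 to 47.4 in WT replicate 3, with 19.9, 12.0 and 46.5 in Ifnar1-/-. Of the 13 H4 genes, 12 were below 0 on the log2 scale, with a median of -0.26, and none was called. Ifnar1-/- replicate 3 had the highest summed H4 level (377), and the log2 ratio of summed H4 levels was -0.21 with it and 0.08 without it. Hist1h4k was at 14.7, 19.3 and 23.9 in WT and at 21.7, 12.7 and 34.8 in Ifnar1-/- monocytes. Hist1h4a, at chr13:23760692-23761230, was steadier, at 11.4, 13.2 and 8.69 in WT and 15.4, 11.5 and 16.7 in Ifnar1-/-, with a log2 fold change of -0.39 ± 0.23 (SE, edgeR, adjusted p = 0.395). Hist4h4, whose annotated transcript is long, was at 22.6, 17.4 and 22.3 in WT and 16.2, 17.8 and 22.6 in Ifnar1-/-.

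Sums over members do not depend on how reads were divided between them. All 67 members together were at 1495, 2468 and 2438 normalized CPM in WT and at 2078, 1525 and 3017 in Ifnar1-/- libraries. The means of 2134 ± 554 (SD, n = 3) and 2207 ± 754 (SD, n = 3) differed by far less than the spread within either group, with a ratio of 0.967. The highest library exceeded the lowest 2.02-fold. The ratio of means, WT over Ifnar1-/-, was 1.07 for H1, 0.933 for H2A, 0.891 for H2B, 0.986 for H3 and 0.865 for H4. H3 sums spread most between libraries, 2.93-fold, and H1 sums least, 1.73-fold.

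**Figure D3:**
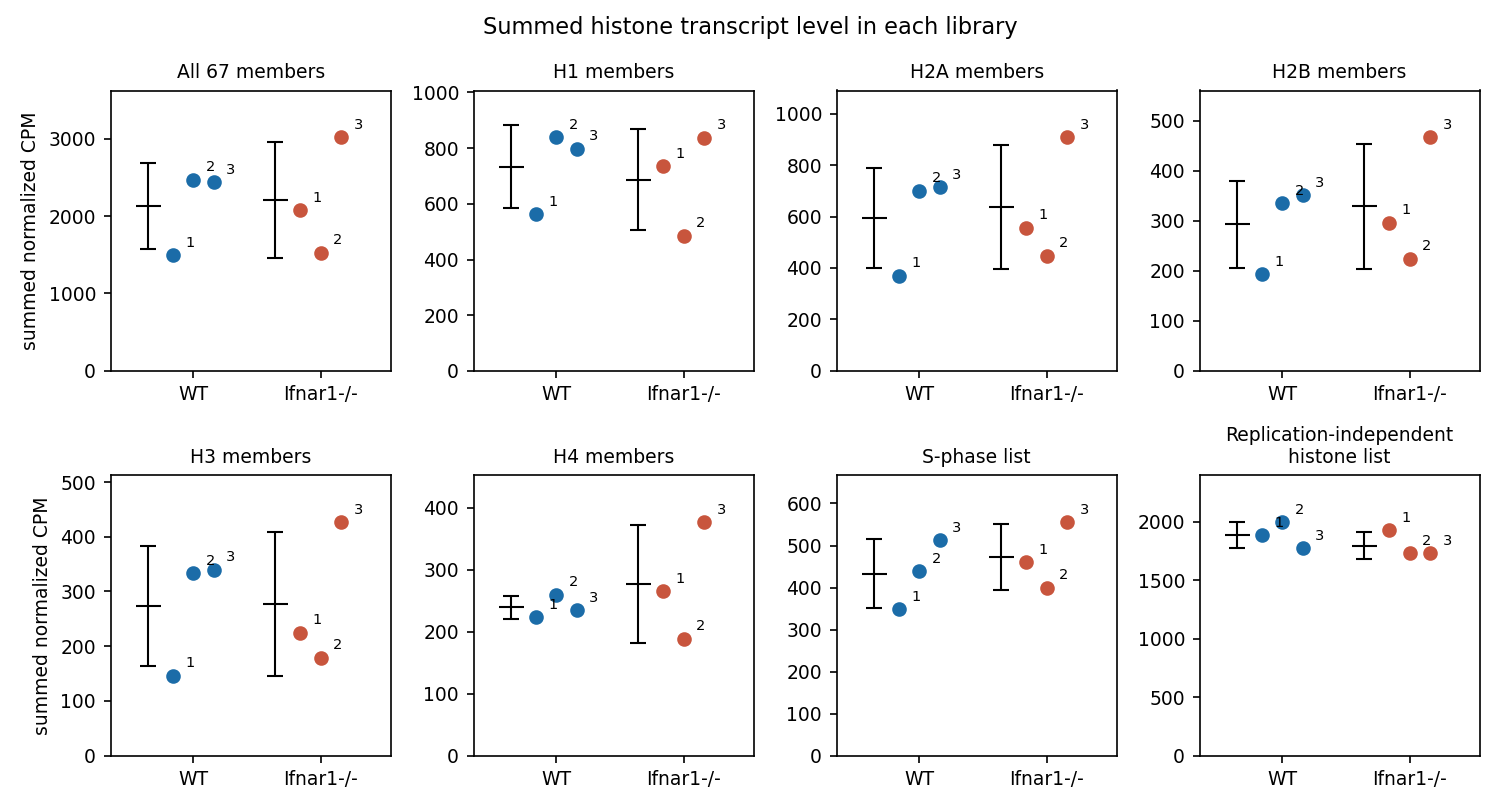
Summed normalized CPM (vertical axis, starting at 0) of all members, of each histone class and of 2 comparison lists in 3 WT (blue) and 3 Ifnar1-/- (red) libraries, each numbered by replicate, with the mean ± SD beside the points. In the panel of all members, WT replicate 1 (1495) and Ifnar1-/- replicate 2 (1525) are lowest and Ifnar1-/- replicate 3 (3017) is highest.

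Most members therefore varied together across libraries, in an order that cut across genotype. WT replicate 1 and Ifnar1-/- replicate 2 were the 2 lowest of the 6 libraries for 39 of 62 members, against 7.85% of all genes tested. Ifnar1-/- replicate 3 was the highest of its group for 58 of 62 members, against 30.5% of all genes, and the highest of all 6 for 48, against 14.8%. WT replicate 1 was the lowest WT library for 49 members, against 36.4% of all genes. These counts describe libraries chosen after the values were seen, and members that share reads are not independent. The median within-group SD of log2(normalized CPM + 0.5) was 0.627 for members and 0.244 for all genes tested, at a similar median level of 21.1 and 21.6 normalized CPM.

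**Figure D4:**
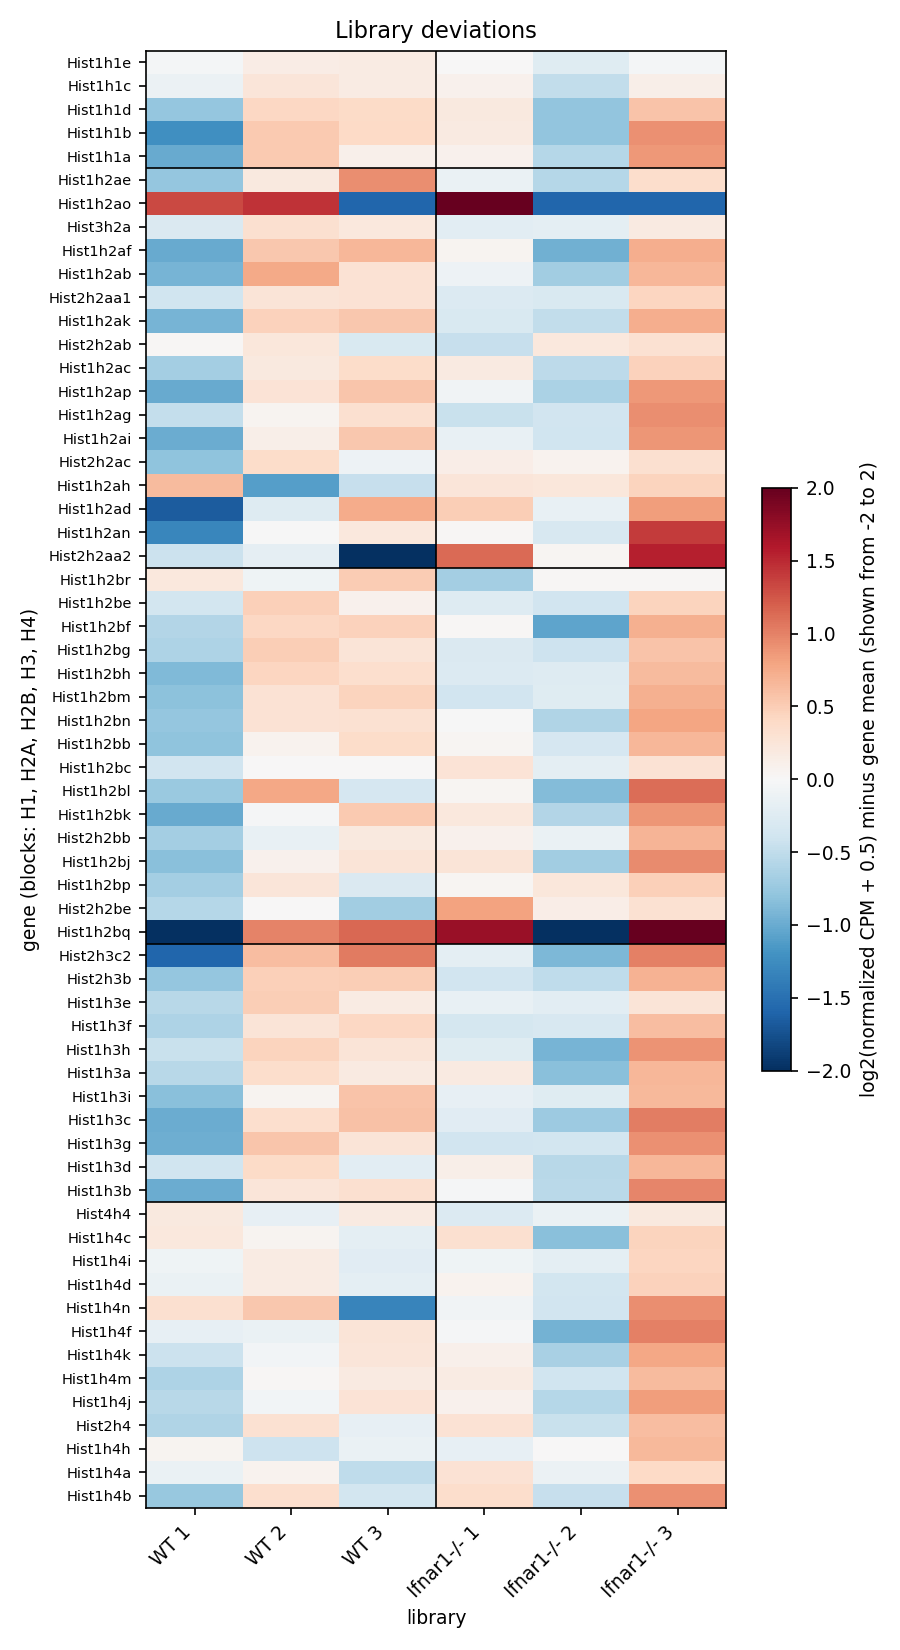
Heatmap of log2(normalized CPM + 0.5) minus the gene's mean over libraries, for the 62 members tested (rows, in blocks by class) in 6 libraries (columns), with red above and blue below the gene's mean. WT replicate 1 and Ifnar1-/- replicate 2 are mostly blue and Ifnar1-/- replicate 3 is mostly red, while Hist1h1e, Hist1h1c and Hist4h4 are pale throughout.

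The spread over libraries is set here beside the annotated transcript end of each member. Of the 43 tested members with a stem-loop match, 20 are annotated to end within 50 bases after it, and their highest library exceeded their lowest by a median of 3.30-fold on the scale of normalized CPM + 0.5. For 12 members whose annotation runs further, but under 500 bases, this median was 2.40-fold, and for 11 that run 500 bases or more it was 1.82-fold. The limits of 50 and 500 bases were set after the values were seen. The last group holds Hist1h1c, Hist1h1e, Hist1h4d, Hist3h2a and Hist4h4, but also Hist1h1d, which varied 2.55-fold, with 65.9, 151 and 147 in WT and 130, 65.1 and 167 in Ifnar1-/-. The 3 groups also differ in level, with median values of 14.0, 24.6 and 37.3 normalized CPM, and in the median share of windows found in another gene, at 56.0%, 35.9% and 11.1%, and no test was made of the difference. For 19 tested members without a match, the median was 3.14-fold. Which transcript end was used cannot be read from counts per gene.

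**Figure D5:**
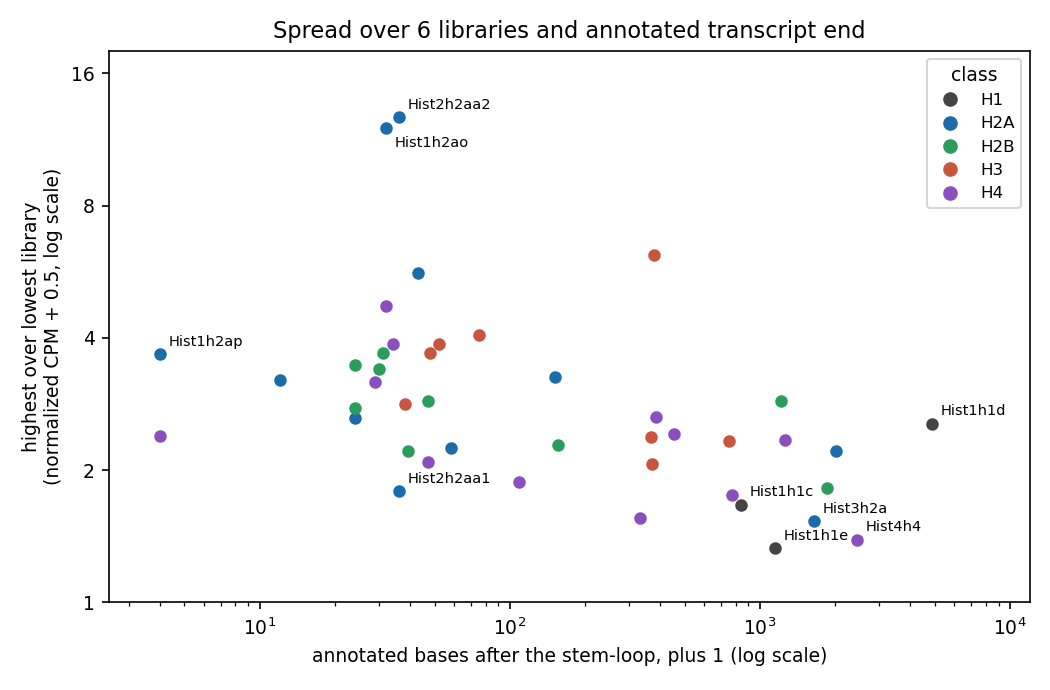
Ratio of the highest to the lowest library (normalized CPM + 0.5, vertical log axis) against annotated bases after the stem-loop plus 1 (horizontal log axis) for the 43 tested members with a stem-loop match, coloured by class. Members annotated to end soon after the stem-loop reach 12.7-fold (Hist2h2aa2, all of whose windows are shared with another gene and whose sum with Hist2h2aa1 varied 2.04-fold), and those that run 500 bases or more past it lie between 1.33-fold and 2.87-fold.

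Genes that act in S phase gave a similar order of libraries to the histone sum. Summed over 25 S-phase genes, which include the sliding clamp gene Pcna and the ribonucleotide reductase gene Rrm1, the level was 348, 439 and 512 normalized CPM in WT and 461, 400 and 556 in Ifnar1-/- libraries. Here too WT replicate 1 and Ifnar1-/- replicate 2 were lowest and Ifnar1-/- replicate 3 highest. No S-phase gene was called, 19 of 25 were below 0 and their median log2 fold change was -0.23. Pcna was at 70.7, 86.9 and 95.4 in WT and 115, 68.3 and 101 in Ifnar1-/-, and Rrm1 at 20.3, 26.8 and 39.1 and at 29.6, 24.1 and 42.1. The summed histone level was 4.29, 5.62 and 4.76 times the S-phase sum in WT libraries and 4.51, 3.81 and 5.43 times in Ifnar1-/- libraries, so the 2 sums did not move in strict proportion. For 18 genes of G2 and mitosis, among them Mki67, Top2a and Ube2c, the sum was 176, 177 and 311 in WT and 236, 167 and 321 in Ifnar1-/-. Replicate 3 of both groups was highest, and none of the 18 genes was called. In bulk libraries fewer cells in S phase and less histone RNA per cell cannot be told apart.

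The sum over replication-independent histone genes did not share this order. Their 11 genes summed to 1888, 1998 and 1774 in WT and 1927, 1729 and 1734 in Ifnar1-/- libraries, and 0 of the 10 tested were called. H3f3b, one of the 2 genes of the variant H3.3, was at 1060, 931 and 823 in WT and 882, 749 and 698 in Ifnar1-/-, with a log2 fold change of 0.27 ± 0.17 (SE). The other, H3f3a, was at 402, 578 and 504 in WT and 595, 532 and 580 in Ifnar1-/- monocytes. H2afz, which encodes the variant H2A.Z, was at 93.2, 139 and 138 in WT and 150, 148 and 173 in Ifnar1-/-, with a log2 fold change of -0.35 ± 0.18 (SE, edgeR, adjusted p = 0.332). H3f3b and H3f3a make up most of the sum, so its order is mainly theirs. H2afx (23.8, 34.6 and 30.6 in WT, 26.7, 21.9 and 34.8 in Ifnar1-/-) and H2afv did have the order of the clustered histone sum at its ends. WT replicate 1 and Ifnar1-/- replicate 2 were lowest and Ifnar1-/- replicate 3 highest. The remaining genes of the list, H2afz included, did not have it in full.

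Genes listed for the making, processing and decay of histone transcripts were not called either. Of 31 symbols listed, 30 genes were found and 29 tested, 18 were below 0 and 11 above, and 0 were called, while 6 had an unadjusted p below 0.05 (17.8% of all genes tested did). Their sum lay between 1174 and 1280 normalized CPM in all 6 libraries, while single genes varied more, Snrpe from 17.5 to 41.1. Slbp, the stem-loop binding protein, was at 38.1, 39.5 and 48.0 in WT and 46.9, 34.9 and 48.4 in Ifnar1-/-. Tut7, a terminal uridylyltransferase, was at 254, 207 and 252 in WT and 203, 190 and 197 in Ifnar1-/-, with a log2 fold change of 0.27 ± 0.14 (SE). The spliceosome core genes Snrpe and Snrpf, whose proteins are also part of the U7 particle, had log2 fold changes of -0.61 and -0.28 and were not called.

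Of 18 histone chaperone genes tested, 10 were below 0 on the log2 scale and 8 above. Only 1 was called, as higher in WT (2.13% of all genes tested were called in either direction). The gene was Daxx, whose protein deposits H3.3 together with ATRX. It was at 196, 129 and 133 normalized CPM in WT and at 34.5, 40.7 and 39.5 in Ifnar1-/- libraries, with no overlap. The log2 fold change was 2.00 ± 0.19 (SE, edgeR, adjusted p = 0.000261). Atrx itself was at 151, 105 and 157 in WT and 131, 154 and 141 in Ifnar1-/-, with a log2 fold change of -0.04 ± 0.17 (SE). Nap1l1, a chaperone of H2A-H2B dimers, was at 95.5, 126 and 115 in WT and 213, 167 and 169 in Ifnar1-/-, and did not pass the test (log2 fold change -0.70 ± 0.16, edgeR, adjusted p = 0.061).

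Other values that moved with the libraries are given for comparison. Ifnar1 itself was at 153, 126 and 111 normalized CPM in WT and 110, 102 and 109 in Ifnar1-/-, and since a total per gene cannot tell deleted exons from the others, it does not check the genotype. Monocyte markers were high in every library, summing to 7801 to 9587 normalized CPM, and of 7 genes Ly6c2 was called, with a log2 fold change of 1.40 (edgeR, adjusted p = 0.00957). The 9 neutrophil genes summed to 281, 508 and 1540 in WT and 574, 567 and 1530 in Ifnar1-/- libraries. Replicate 3 of both groups was therefore high, mainly through the granule protein genes Ngp, Ltf, Camp and Mpo. Mpo was at 16.9, 42.5 and 142 in WT and 63.8, 44.2 and 231 in Ifnar1-/-. Elane, like Mpo named after its values were seen, was at 5.41, 27.8 and 48.8 in WT and 27.3, 15.9 and 98.0 in Ifnar1-/-. By contrast, Mmp8 was highest in Ifnar1-/- replicate 2 (212) and Retnlg in WT replicate 3 (18.2). Ly6g, which defines the gate against neutrophils, was at 0 to 0.79, and none of the 8 genes tested was called. Beside these values, the histone sum was lowest in WT replicate 1 (1495), where the neutrophil sum was also lowest, and highest in Ifnar1-/- replicate 3 (3017), while WT replicates 2 and 3 had histone sums of 2468 and 2438. The part of these transcripts in the histone values was not tested. Of 8 T-cell genes, 6 were tested and all 6 had a value above 0 and an unadjusted p below 0.05, with sums of 19.8 to 46.2 in WT and 7.96 to 19.7 in Ifnar1-/-, and none was called. The 4 B-cell and 4 NK-cell genes summed to at most 10.7, and the oligodendrocyte and astrocyte genes, mainly Mbp, to 44.6 to 61.3, with Mog at 0 throughout. None of those tested was called.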

How the data were processed

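RNA-seq libraries were made from total RNA of sorted monocytes, with a kit that the labels and the study's methods name differently. Per the labels' processing notes, RSEM 1.2.31, STAR 2.6.0c and GRCm38 were used; whether counting used the strand was not given in the sources used here. The deposited gene files hold the authors' expected counts, which are estimated and not normalized, and TPM scaled by the authors to a common total per library. RSEM divides reads that match several genes between them, which affects near-identical histone genes. The authors' deposited FPKM, scaled by length and depth, were not used.

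Gene names and positions came from GENCODE M21, which matched 54165 of 54232 identifiers and left 67 unmatched. Members were the 67 protein-coding genes among 70 symbols, leaving out 3 pseudogenes. Libraries held 4531782 to 7321380 expected counts, and the floor of 3 counts covers counting error only. The 95% intervals of fold changes come from the fit below and include the spread between libraries. Expected counts were rounded and all genes were fitted together in edgeR 4.0.16 (R 4.3.3) with TMM normalization, filterByExpr (minimum count 10), the quasi-likelihood test and Benjamini-Hochberg adjustment. A call needed an adjusted p no higher than 0.05 together with a 1.5-fold difference, as in the study's methods. Exact permutation tests were two-sided, on log2(normalized CPM + 0.5). The fit was tested on simulated data, with changed genes drawn from all genes and not from the members. It recovered 98.8% of 4-fold but only 58% of 2-fold differences, and 6.83% of its calls were false. Sums over members were not tested.

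The genes named were the 12 members with the highest mean TPM, any member called, the 5 smallest p in each direction, and, of each other list, genes called and the 3 with the highest mean TPM. Any other member named was picked with its values in view. The members and lists were chosen with earlier results of these data known. Older symbols in the lists were matched through RefSeq synonyms. Alternatives were DESeq2 1.42.0, RLE normalization, no filter, at least 10 counts in every library, a fit without mitochondrial and rRNA genes, the adjusted p with no fold threshold, limma 3.58.1 on log2(TPM + 0.5) with and without a filter of 1 TPM and on log2(TPM + 1), a replicate block and leaving out each library. Leaving out replicate 3 of both groups and summing near-identical copies were added after seeing the data. Shared sequence was measured as 75-base windows of annotated transcripts that occur in another gene, on the same strand unless either strand is named. Stem-loops were read from GENCODE M21 transcripts and promoters from RefSeq.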

Additional observations from a re-analysis of the deposited data

Results flagged for a closer look

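Of the 3 histone pseudogenes left out of the comparisons, Hist3h2bb-ps had a signal above the 3 counts that a count of 0 allows. Its expected counts were 5, 8 and 0 in WT and 9, 3 and 1 in Ifnar1-/- libraries, so the highest was 9. Hist1h2aj was at 0 in every library and Hist1h2al reached 1.06.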

How the results depend on the processing

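The count of members called was 0 under RLE normalization, DESeq2, at least 10 counts in every library, without mitochondrial and rRNA genes, with the adjusted p but no fold threshold, and in the 3 fits on TPM and both alternatives added after seeing the data. It was 3 without a filter on low counts (Hist2h2aa2, Hist1h2an and Hist1h2bq, where 4.1% of all genes were called) and 0 to 1 when each library was left out, the 1 being Hist2h2aa2 without Ifnar1-/- replicate 2. The count over all genes was 240 in edgeR, 420 with DESeq2, 872 without a filter, 123 and 126 with limma on log2(TPM + 0.5) and log2(TPM + 1), 85 without a TPM filter, 95 without replicate 3 of both groups, and 119 to 245 when each library was left out. It was lowest without Ifnar1-/- replicate 1 (119), Ifnar1-/- replicate 3 (120) and WT replicate 3 (148). The cause of these differences was not tested. Of 20 members named by the rule, 10 took another sign in at least 1 alternative, none of them with a call. From TPM, Hist1h4k was at 0.06 and Hist1h2bn at 0.04 in all 3 fits, and without replicate 3 of both groups Hist1h2ap was at 0.10 and Hist1h2bn at 0.13. Leaving out each library gave log2 fold changes of -0.41 to 0.43 for Hist1h2ap, -0.55 to 0.31 for Hist1h2ai, -0.42 to 0.31 for Hist1h2bn, -0.16 to 0.57 for Hist1h2ak, -0.07 to 0.64 for Hist2h3b, -0.27 to 0.57 for Hist1h2ab, -0.21 to 0.61 for Hist1h2af, -0.15 to 0.72 for Hist1h2ae, -0.02 to 0.40 for Hist2h2aa1 and -0.54 to 0.18 for Hist1h4k. The log2 ratios of summed levels were recomputed with RLE normalization, from TPM, without mitochondrial and rRNA genes and with each library left out. They moved by less than 1 within-group SD (log2 sums, pooled over both groups) in each. Leaving out 1 of 3 libraries can hardly move a ratio further than that SD, so this does not show that the ratios are stable. Leaving out each library gave a range of -0.26 to 0.24 for all members, -0.25 to 0.43 for H3 and -0.42 to 0.08 for H4, so their signs changed. A replicate block gave 0 members called and 220 genes in all. The numbers are not shown to pair the libraries, since correlations of deviations from the group means were 0.0906, 0.0278 and 0.275 for same-numbered libraries, and WT replicate 1 correlated as well with Ifnar1-/- replicate 2 (0.092). Depth limits the members that rest on few reads, such as Hist2h2be with 120 counts, and shared sequence limits values of single copies.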
